A study of Homo sapiens with 10 samples.

Results

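The genes described here are 38 genes of sterol and fatty acid synthesis that are controlled by, or control, the sterol regulatory element binding proteins (SREBPs), followed in RNA-seq data from C33A cells, a human cervical carcinoma line without BRG1 and BRM protein. They were taken as a list of symbols. SREBF1 was chosen because it was among the top genes of cells given mutant BRG1 in these data. The levels below are therefore a description of the members and not a test of them. The current identifier of ACACA was not among the 63152 gene identifiers in each gene table, and an older one was not searched for. The other 37 members had an identifier there, and 34 members had a base mean of at least 100 in all 4 tables. Those 34 were compared with the 11646 genes that passed the same limit.

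Cells were transfected transiently with Lipofectamine and collected after 48 h. The 10 libraries formed 5 groups of 2, which differed only in the plasmid given. Control cells had the empty vector pOPRSVI, the BRG1 groups had pBJ5-BRG1 (BRG1-wt) or pBJ5-BRG1-K798R (BRG1-mut), and the BRM groups had pCG-hBrm (BRM-wt) or pCG-hBrm-K798R (BRM-mut). K798R is a substitution in the ATPase domain. The control plasmid has another backbone than the BRG1 and BRM plasmids, so the protein and the backbone cannot be told apart against the control. The same holds for BRG1 against BRM, because their plasmids are pBJ5 and pCG. Only the wild type and mutant of the same protein share a backbone. The labels do not say whether the replicates were separate cultures. Each gene table gave a base mean, which is the authors' mean of the normalised read counts of 4 libraries, the 2 of a group and the same 2 control libraries. A base mean therefore has no spread and no n here, and no ratio below was tested. Even with a value for every library, 2 against 2 libraries could not go below an exact permutation p of 0.333 (two-sided).

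The transfected genes followed the labels. The base mean of SMARCA4, which encodes BRG1, was 25802 in the BRG1-wt table and 29824 in the BRG1-mut table, against 3864 and 3076 in the BRM-wt and BRM-mut tables. SMARCA2, which encodes BRM, had base means of 59658 (BRM-wt) and 75591 (BRM-mut), against 12.6 and 9.33 in the BRG1-wt and BRG1-mut tables. Of the epithelial markers, KRT18 had base means of 263 to 696 and KRT8 of 90.8 to 456, both higher in the tables of the wild-type proteins, while EPCAM was at 22.6 to 30.2 and CDH1 at 3.05 to 6.27. Among markers of other cell types, CD3E was at 0 and CD14 at 5.84 to 9.26, COL1A1 was at 19.1 to 36.5, and the leukocyte gene PTPRC was at 1529 to 1851. Keratins were thus present while the epithelial adhesion genes were low, and the level of PTPRC went against the labelled cell type. Its part in the results was not tested.

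SREBPs are made as precursors in the membrane of the endoplasmic reticulum. SCAP carries them to the Golgi when sterols are scarce, where proteases release the part that enters the nucleus, and INSIG1 and INSIG2 hold SCAP back when sterols are plentiful. SREBF2 encodes the form best known for driving cholesterol synthesis, and SREBF1 encodes forms that also drive fatty acid synthesis from alternative first exons. In the nucleus they bind sterol regulatory elements, usually together with factors that bind GC boxes or CCAAT boxes.

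The promoters of both SREBP genes are printed because both genes head the pathway and both were past the limit used below. They are the 250 bases before the start site in RefSeq (GRCh38.p14), with every match to the motifs searched in capitals, on either strand: TCACNCCAC for a sterol regulatory element, CACGTG for an E-box, CCAAT and, for a GC box, GGGCGG. SREBF1 lies on the minus strand at chr17:17836987-17837236 and SREBF2 on the plus strand at chr22:41832855-41833104.
SREBF1 promoter: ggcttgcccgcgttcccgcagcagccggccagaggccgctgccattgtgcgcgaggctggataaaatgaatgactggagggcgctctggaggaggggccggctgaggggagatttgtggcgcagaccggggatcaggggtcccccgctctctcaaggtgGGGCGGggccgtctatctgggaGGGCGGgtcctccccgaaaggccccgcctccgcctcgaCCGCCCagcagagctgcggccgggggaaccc
SREBF2 promoter: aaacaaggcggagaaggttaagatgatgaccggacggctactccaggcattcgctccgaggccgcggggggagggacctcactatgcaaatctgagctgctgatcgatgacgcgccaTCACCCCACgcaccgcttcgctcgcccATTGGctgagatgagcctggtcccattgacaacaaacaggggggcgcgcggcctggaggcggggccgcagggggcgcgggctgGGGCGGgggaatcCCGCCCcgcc

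The SREBF1 window, which lies before 1 start site only, held 3 GC boxes and none of the other motifs, with a GC content of 71.2%. Windows before the other first exons of SREBF1 were not searched. The SREBF2 window held 1 match to the sterol regulatory element, 1 CCAAT box and 2 GC boxes, with a GC content of 67.2%. RefSeq promoters were at hand for 34 of the 38 members, 47 promoters in all. They were not at hand for FASN, ACAT2, FDFT1 and SQLE. A match to the sterol regulatory element was found in 1 of the 47 promoters, that of SREBF2, and in 0.883% of all 35116 promoters. An E-box was found in 6 of the 47 (6.34% of all promoters), a CCAAT box in 25 (32.0%) and a GC box in 41 (42.6%). None of the matches overlapped another in the printed windows. These letters are a description of the windows and say nothing of binding.

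The printed exons are those whose inclusion was listed as differing from the control in genes of SREBP control and in MVK. They are read from GRCh37 in the direction of transcription, and only bases that were coding in every annotated protein-coding transcript with an exon there (GENCODE v44 lifted to GRCh37) are shown. The SREBF2 exon at chr22:42300539-42300736 (plus strand, 198 bp) is exon 4 of a single annotated transcript, and 4 transcripts skip it. It is not in the main transcript and lies near the 3' end of the gene (chr22:42229109-42303310). The SREBF1 exon at chr17:17726832-17726921 (minus strand, 90 bp) is exon 2 of a single transcript, and its last 19 bases begin with the annotated start codon of shorter transcripts, in capitals. The second SREBF1 exon, at chr17:17716682-17716793 (minus strand, 112 bp), is exon 18 of the main transcript, the SCAP exon at chr3:47465423-47465535 (minus strand, 113 bp) is exon 9, and the MVK exon at chr12:110019200-110019355 (plus strand, 156 bp) is exon 5.
SREBF2 exon, 198 bases: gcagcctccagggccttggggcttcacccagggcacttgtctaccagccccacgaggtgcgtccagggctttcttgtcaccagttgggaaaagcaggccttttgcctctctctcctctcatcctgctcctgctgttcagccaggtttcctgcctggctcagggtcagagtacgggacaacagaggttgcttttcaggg
SREBF1 exon 2, last 19 bases: ATGgattgcactttcgaag
SREBF1 exon 18, 112 bases: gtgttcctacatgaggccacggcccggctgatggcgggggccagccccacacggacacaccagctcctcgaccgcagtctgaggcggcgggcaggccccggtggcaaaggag
SCAP exon 9, 113 bases: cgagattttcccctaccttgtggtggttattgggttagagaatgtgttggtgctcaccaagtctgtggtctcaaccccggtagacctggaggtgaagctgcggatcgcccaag
MVK exon 5, first 141 bases: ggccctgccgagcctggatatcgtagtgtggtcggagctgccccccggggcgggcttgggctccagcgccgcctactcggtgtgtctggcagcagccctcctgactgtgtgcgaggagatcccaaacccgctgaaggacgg

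To ask how the members differed between wild-type and mutant proteins and between the BRG1 and BRM groups, base means were compared in 4 pairs of tables. For this the tables were first scaled to each other by the median ratio over the 11646 genes, and a gene was counted as higher or lower when its base mean in the first table was at least 25% above that in the second, or at most 0.8 times it, which is a difference of 0.322 on the log2 scale. All 4 tables hold the same control libraries, so the pairs are not independent of each other. For the same reason a base mean ratio understates the ratio of the group means, and the difference between group means is given where a result turns on it. Fewer expressing cells and less RNA per cell cannot be told apart in such bulk samples.

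The widest spread among members was between the ATPase mutants. In BRG1-mut against BRM-mut, 10 of the 34 members compared were higher and 0 were lower. Over all genes 20.4% were higher and 0.12% lower. The 10 were SREBF1, SREBF2 and SCAP among the regulators, MVK, PMVK and MVD of the mevalonate pathway, LSS, TM7SF2 and DHCR7 of the later sterol steps, and FASN. The median log2 ratio over the 34 members was 0.01, against -0.01 over all genes, with 17 members above 0 and 17 at or below it. SREBF2 (1.31-fold) was the member just inside the limit and FADS2 (1.22-fold) the member just outside it.

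Between the wild-type and mutant forms, fewer members passed the limit. In BRG1-wt against BRG1-mut, 0 members were higher (1.67% of all genes) and 5 were lower (8.34% of all genes): SREBF1, MVK, MVD, TM7SF2 and FASN. In BRM-wt against BRM-mut, 5 members were higher (8.86% of all genes) and 0 lower (0.0515% of all genes): SREBF1, MVD, LSS, TM7SF2 and FASN. The medians over members were 0.01 for BRG1 and 0.07 for BRM on the log2 scale, against -0.01 and 0.01 over all genes. In BRG1-wt against BRM-wt, 0 members were higher (0.146% of all genes) and 0 lower (0.0687% of all genes), and the members' log2 ratios lay between -0.26 and 0.13.

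**Figure D1:**
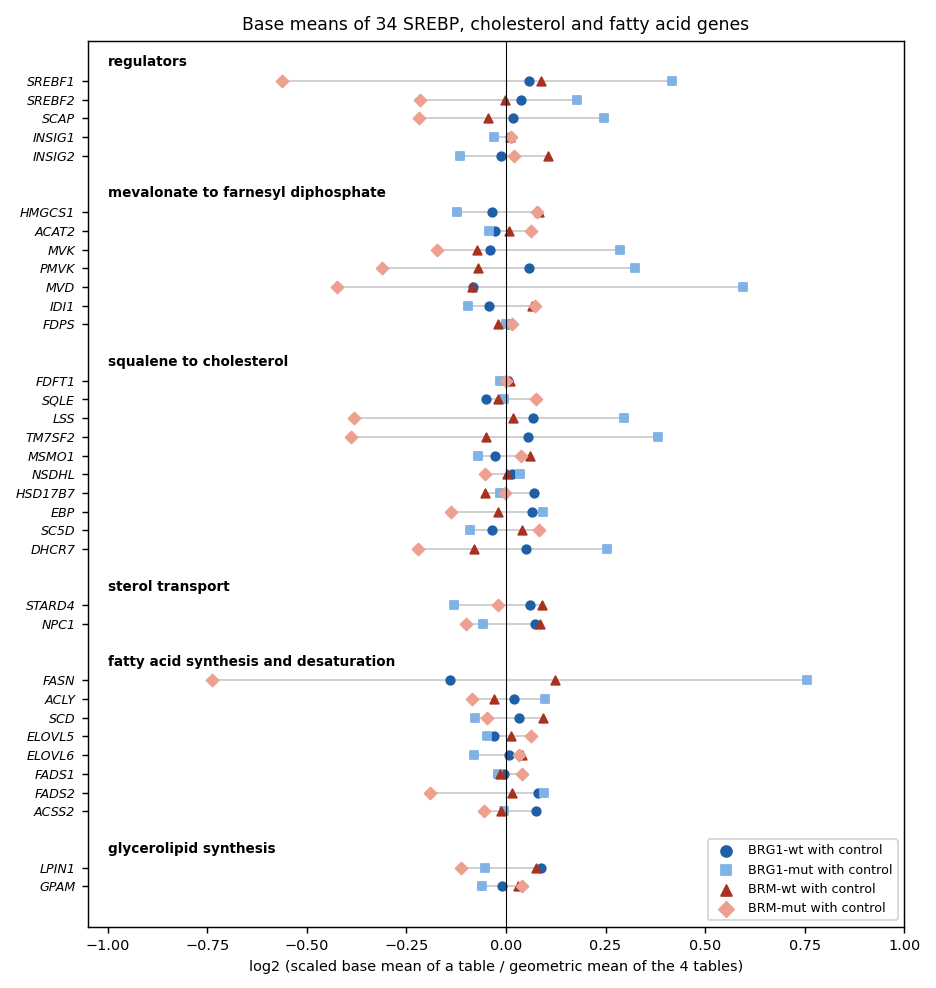
Scaled base means of the 34 members compared, drawn as the log2 of each table's value over the geometric mean of the 4 tables for that gene (x axis) and grouped by role (y axis). Each symbol is 1 table, which pools 2 libraries of a group with the 2 control libraries, so there are no error bars. SREBF1, MVD, LSS, TM7SF2 and FASN spread widest, with BRG1-mut highest and BRM-mut lowest, while FDPS, FDFT1 and INSIG1 hardly spread.

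SREBF1 (chr17:17713713-17740316, GRCh37, minus strand) was the regulator with the widest spread. Its base means were 2300 (BRG1-wt) and 2875 (BRG1-mut), then 2271 (BRM-wt) and 1546 (BRM-mut), so the wild-type tables were close to each other, and the mutants lay on either side of them. After scaling, BRG1-mut was 1.97-fold above BRM-mut (0.98 on the log2 scale), which corresponds to a difference of 2897 normalised counts between the group means. The log2 ratio was -0.36 in BRG1-wt against BRG1-mut and 0.65 in BRM-wt against BRM-mut.

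SREBF2 (chr22:42229109-42303310, plus strand) and its escort SCAP (chr3:47455171-47518616, minus strand) also had BRG1-mut highest and BRM-mut lowest, over a narrower span. The base means of SREBF2 were 4746 (BRG1-wt) and 5104 (BRG1-mut), then 4467 (BRM-wt) and 4120 (BRM-mut). Those of SCAP were 2481 (BRG1-wt) and 2837 (BRG1-mut), then 2298 (BRM-wt) and 2178 (BRM-mut). The log2 ratios of BRG1-mut over BRM-mut were 0.39 for SREBF2 and 0.47 for SCAP, and neither gene reached the limit in the other pairs.

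The retention proteins differed less. INSIG1 (chr7:155089486-155101945) had base means of 1646 (BRG1-wt) and 1561 (BRG1-mut), then 1592 (BRM-wt) and 1705 (BRM-mut). INSIG2 (chr2:118846028-118868573) had base means of 1875 (BRG1-wt) and 1703 (BRG1-mut), then 1970 (BRM-wt) and 1985 (BRM-mut). Their log2 ratios of BRG1-mut over BRM-mut were -0.04 and -0.14, so of the 5 regulators the SREBP genes and SCAP were higher in BRG1-mut and both INSIG genes were under the limit in all 4 pairs.

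In the mevalonate pathway, which builds farnesyl diphosphate from acetyl-CoA, the kinases and the decarboxylase stood apart from the other enzymes. MVD, which makes isopentenyl diphosphate, had base means of 307 (BRG1-wt) and 479 (BRG1-mut), then 297 (BRM-wt) and 251 (BRM-mut), and BRG1-mut exceeded BRM-mut 2.03-fold. Phosphomevalonate kinase, PMVK, had base means of 489 (BRG1-wt) and 574 (BRG1-mut), then 434 (BRM-wt) and 392 (BRM-mut), a 1.55-fold difference between the mutants. Mevalonate kinase, MVK, had base means of 254 (BRG1-wt) and 311 (BRG1-mut), then 240 (BRM-wt) and 239 (BRM-mut), a 1.38-fold difference between the mutants. BRG1-mut was the highest of the 4 tables for each of these genes. Set against genes of like GC content, as described below, the log2 ratios between the mutants came to 0.17 (MVD), 0.11 (PMVK) and 0.16 (MVK). These values are under the limit.

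The remaining 4 mevalonate enzymes had higher levels per length (546 to 1812 per kb of exon, against 29.1 to 474 for these 3) and log2 ratios at or below 0. HMGCS1, the synthase that makes HMG-CoA, had the lowest ratio of all members, with base means of 3534 (BRG1-wt) and 3244 (BRG1-mut), then 3715 (BRM-wt) and 3953 (BRM-mut) and a log2 ratio of -0.20 between BRG1-mut and BRM-mut. IDI1, the isomerase, followed at -0.17 and the thiolase ACAT2 at -0.11. FDPS, which makes farnesyl diphosphate, was nearly level, with base means of 6782 (BRG1-wt) and 6595 (BRG1-mut), then 6459 (BRM-wt) and 7071 (BRM-mut), a log2 ratio of -0.02 after scaling.

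Of the enzymes from squalene to cholesterol, 10 of 11 were compared, and 3 were higher in BRG1-mut than in BRM-mut. LSS, which closes the sterol rings, had base means of 1194 (BRG1-wt) and 1365 (BRG1-mut), then 1118 (BRM-wt) and 905 (BRM-mut). TM7SF2, a sterol reductase, had base means of 392 (BRG1-wt) and 479 (BRG1-mut), then 352 (BRM-wt) and 298 (BRM-mut), and DHCR7, the last reductase of the pathway, had base means of 2321, 2607, 2052 and 1991 in the same order. The mutants differed 1.60-fold for LSS, 1.71-fold for TM7SF2 and 1.39-fold for DHCR7. The log2 ratios of the other 7 enzymes, including the squalene synthase FDFT1 and the squalene epoxidase SQLE, lay between -0.17 (SC5D) and 0.23 (EBP). CYP51A1, the sterol demethylase, had the lowest level per length of the members above 0 (base means of 14.9, 26.2, 14.9 and 8.31 in the same order, a mean of 3.89 per kb of exon after scaling) and was not compared. Its exons share bases with 4 other annotated genes, and the part of this overlap in its level was not tested.

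FASN (chr17:80036214-80056170, minus strand), the fatty acid synthase, had the widest spread of all members. Its base means were 2799 (BRG1-wt) and 5088 (BRG1-mut), then 3253 (BRM-wt) and 1915 (BRM-mut). BRG1-mut exceeded BRM-mut 2.82-fold, a difference of 6707 normalised counts between the group means. A base mean is the midpoint of the group mean and the control mean and no mean is below 0, so the control mean of FASN can be no more than the lowest table allows. If the controls were scaled alike in both tables, the BRG1-mut mean was at least 1.82 times the control mean. The log2 ratio was -0.90 in BRG1-wt against BRG1-mut, 0.86 in BRM-wt against BRM-mut and -0.26 in BRG1-wt against BRM-wt.

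The other fatty acid genes that could be compared were under the limit in all 4 pairs. ACACA had no value, and ME1 was not compared. ACLY, which makes cytosolic acetyl-CoA, had the highest level per length of all members (3280 per kb of exon, a mean of the 4 scaled base means) and base means of 17366 (BRG1-wt) and 17868 (BRG1-mut), then 16220 (BRM-wt) and 16682 (BRM-mut). The desaturase SCD was next in level per length (2954 per kb). The log2 ratios of BRG1-mut over BRM-mut for the elongases ELOVL5 and ELOVL6, the desaturases SCD, FADS1 and FADS2, the synthetase ACSS2 and ACLY lay between -0.11 and 0.28, and FADS2 was the highest of these. ME1, the malic enzyme, was listed at 0 in all 4 tables. Of the transport and glycerolipid genes, STARD4, NPC1, LPIN1 and GPAM had log2 ratios of -0.11 to 0.06 between the mutants, and the sterol exporter ABCA1 (base means of 92.3 to 119) was not above 100 in all tables.

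The 10 members past the limit between the mutants were also the members richest in GC, with a single exception. Their exons had a median GC content of 59.0% (range 56.0% to 65.2%), against 45.4% (34.6% to 57.5%) for the other 24 members and 46.6% for the 11431 genes with a GC content. FADS2, with 57.5%, was the exception. Over all those genes the log2 ratio of BRG1-mut over BRM-mut was higher in genes of higher GC content (Spearman's rho 0.867, Pearson's r 0.838, across genes, which share the same libraries and are not replicates). In the same genes rho was -0.664 for BRG1-wt against BRG1-mut, 0.667 for BRM-wt against BRM-mut and 0.491 for BRG1-wt against BRM-wt.

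Set against genes of like GC content, fewer members passed the limit. Genes like SREBF1 in GC content had a median log2 ratio of 0.66 between the mutants, beside its own 0.98. The corresponding medians were 0.38 for SREBF2, 0.53 for SCAP, 0.30 for MVK, 0.53 for PMVK and 0.85 for MVD. For TM7SF2 the median was 0.75, for LSS 0.34, for DHCR7 0.34 and for FASN 1.01. After these medians were subtracted, 2 of the 34 members stayed higher in BRG1-mut than in BRM-mut, FASN at 0.48 and LSS at 0.34, while the share of all genes came to 3.46%. SREBF1 came to 0.32, just under the limit. FASN alone stayed lower in BRG1-wt than in BRG1-mut (-0.34, with 1.04% of all genes lower), and SREBF1 (0.35) and FASN (0.37) stayed higher in BRM-wt than in BRM-mut (2.69% of all genes higher). Between the mutants SCAP came to -0.06 and FADS2 to -0.10, both on the other side of 0, and FDPS, level before, came to -0.27. The part of GC content in the ratios was not tested.

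**Figure D2:**
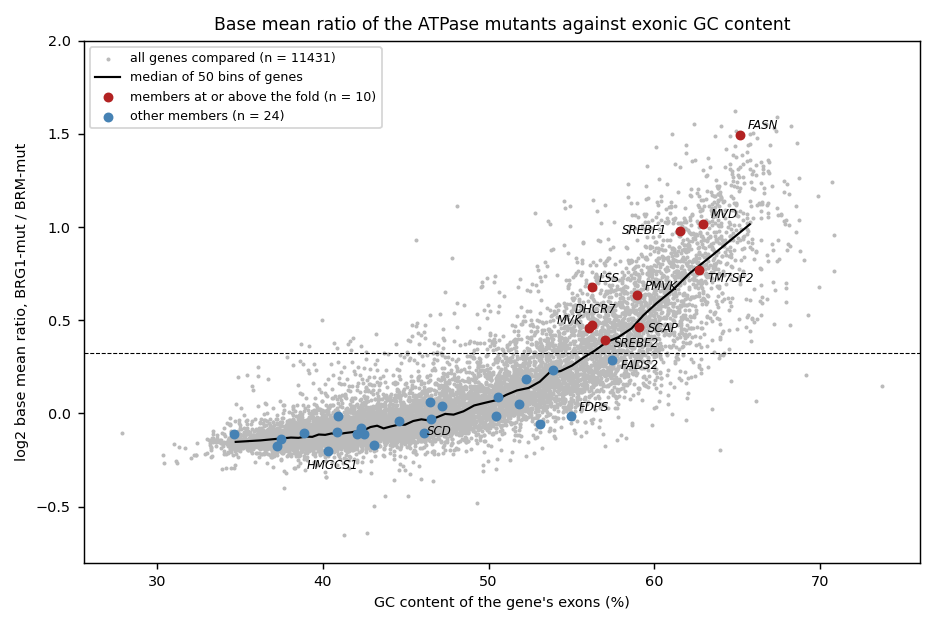
Log2 base mean ratio of BRG1-mut over BRM-mut (y axis) against the GC content of a gene's exons in percent (x axis). Grey points are all 11431 genes with a GC content, the black line joins the medians of 50 bins of genes, red points are the 10 members at or above the limit (dashed line) and blue points are the other 24 members. FASN, LSS and SREBF1 lie above the line, SREBF2, SCAP and TM7SF2 on or near it, and FDPS below it, and 2 genes lie outside the drawn range of -0.8 to 2.0.

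Exon inclusion was given by the authors as PSI, the fraction of transcripts that include an exon, in tables that each pair 1 transfected library with the control that shares its number. An event is present in a table only where it passed the authors' threshold, and an event that is not listed has no value. The 8 tables held 396 to 977 events each, and 3102 distinct events in all. In the members there were 9 distinct events, in 7 genes, and none in the other 31 members. They were listed 13 times, 9 times with more inclusion than in the control and 4 times with less. The members' listings numbered 4 in BRG1-wt, 4 in BRG1-mut, 3 in BRM-wt and 2 in BRM-mut. Matching counts of genes, directions and groups over all events are not given here, and the tables differ in size. These counts therefore describe the members only, and a difference between groups or directions cannot be read from them. No event of a member was listed in both replicates of a group, against 425 of all 3102 events (13.7%).

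The SREBF2 exon printed above had the largest difference. Its PSI was 0.78 in control replicate 1, against 0.17 in BRG1-wt, 0.13 in BRG1-mut and 0.04 in BRM-wt of the same replicate number. The inclusion was low in all 3 transfected libraries, but all 3 values were set against the same control library, and neither BRM-mut nor any library of replicate 2 was listed. The exon has 198 bases, a multiple of 3.

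SREBF1 had listings for both of its exons printed above. The 90 bp exon was coding throughout in the annotated transcript that includes it. The start codon within it belongs to other, shorter transcripts. Reads of those transcripts can fall on bases of this exon, and their part in its PSI was not tested. PSI of this exon was 0.24 in control replicate 2, 0.46 in BRG1-wt and 0.62 in BRM-wt of that replicate. Both wild-type libraries were above the one control library, and the mutants were not listed. Exon 18 had a PSI of 0.03 in control replicate 1 and 0.15 in BRM-wt.

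The other events of SREBP control and of sterol synthesis were listed in 1 group each, except in FDPS. SCAP exon 9 had a PSI of 0.69 in control replicate 1 and 0.89 in BRG1-wt. MVK exon 5 had a PSI of 0.55 in control replicate 1 and 0.84 in BRG1-wt. Inclusion was higher in this BRG1-wt library than in its control for both genes, and the other groups were not listed.

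The remaining events were of low inclusion. Exon 2 of FDPS (chr1:155279580-155279756, 177 bp) had a PSI of 0.05 in both control libraries, 0.10 in BRG1-mut replicate 2 and 0.02 in BRM-mut replicate 1, so the mutants lay on opposite sides of the control but in different replicates. A form of the same exon with an earlier start (chr1:155279544-155279756, 213 bp) was at 0.05 in control replicate 2 and 0.09 in BRG1-mut. LPIN1, a phosphatidate phosphatase, had an exon (chr2:11916212-11916319, 108 bp) at 0.13 in control replicate 1 and 0.29 in BRG1-mut, and a noncoding exon of FDFT1 (chr8:11660831-11661027, 197 bp) was at 0.02 in control replicate 2 and 0.05 in BRM-mut.

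**Figure D3:**
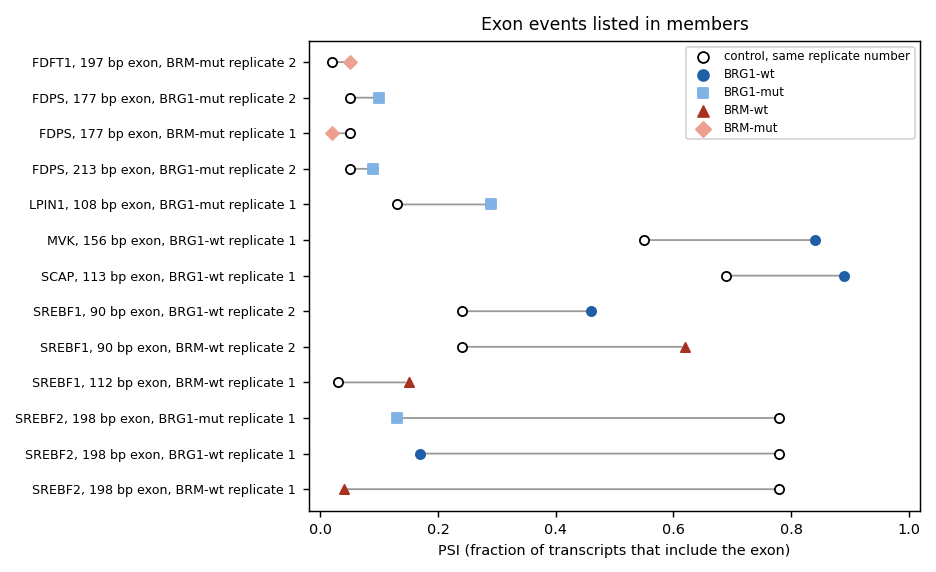
PSI (x axis, a fraction) of the 13 listings of exon events in members (y axis). Open circles are control libraries and filled symbols are transfected libraries with the same number. Each point is 1 library, so there are no error bars. The 3 SREBF2 rows run from 0.78 down to 0.17, 0.13 and 0.04 from the same control library, and the SREBF1, SCAP, MVK and LPIN1 rows run upwards.

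Other genes of the pathway were counted in the same way. A list of 31 other pathway genes (proteases and degradation partners of SREBP, sterol-sensing receptors, carriers, elongases and acyltransferases) had 28 genes to compare. Between the mutants 8 of the 28 were higher in BRG1-mut (20.4% of all genes) and 0 lower (0.12% of all genes). The median log2 ratio was 0.11, against -0.01 over all genes. In BRG1-wt against BRG1-mut 1 was higher (1.67% of all genes) and 3 were lower (8.34%). In BRM-wt against BRM-mut 5 were higher (8.86%) and 0 lower (0.0515%). In BRG1-wt against BRM-wt 0 passed in either direction (0.146% of all genes higher and 0.0687% lower). The protease genes MBTPS1 and MBTPS2, which cut SREBP in the Golgi, were under the limit between the mutants (0.09 and -0.09). The widest ratios were those of the acyltransferase AGPAT2 (1.35, GC content 66.4%) and the sterol receptor NR1H2 (1.33, GC content 59.6%).

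VLDLR, a lipoprotein receptor, was the single one of these genes past the limit upwards in BRG1-wt against BRG1-mut. Its base means were 212 (BRG1-wt) and 131 (BRG1-mut), then 190 (BRM-wt) and 135 (BRM-mut), higher in both wild-type tables, with log2 ratios of 0.66 for BRG1-wt against BRG1-mut and 0.59 for BRM-wt against BRM-mut. Its exons have a GC content of 42.4%, and no member was past the limit in this direction in both pairs. Among the members compared, FDFT1, LPIN1, NPC1, SCD and STARD4 also had higher scaled base means in both wild-type tables than in both mutant tables. For FDFT1 the scaled base means were close, at 8364 (BRG1-wt) and 8387 (BRM-wt) against 8253 (BRG1-mut) and 8336 (BRM-mut).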

How the data were processed

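RNA-seq was analysed for 10 libraries of transfected C33A cells, grouped by their labels. Reads were mapped by the authors with TopHat2 2.0.4 to GRCh37 and counted per gene with HTSeq 0.6.1. The strand setting is not given in the sources used here, and 20 of the 38 members share exonic bases with another annotated gene. Reads of overlapping genes may therefore be mixed or left uncounted. The gene tables deposited by the authors hold base means from DESeq2, entered as a score because they are pooled over libraries. Fold changes, errors and p-values in the same tables, and Bayes factors and directions in the MISO tables, are comparisons made by the authors and were not used. PSI values are a fraction per library, as deposited by the authors after MISO. The library common to all tables of a replicate was read as pOPRSVI, the plasmid common to their names. Depth per library is unknown, because base means and PSI carry no totals, and no interval could be given.

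Base means were scaled by the median ratio over genes with at least 100 in all 4 tables, and differences of at least 25% were counted, with the share of all genes beside them. GC content was taken over the union of exons, and medians of 50 bins of genes served as an alternative. The scaling and ratios were checked on simulated base means in which a small set of genes was raised in BRG1-mut alone. The simulation held no trend with GC content, so it does not bear on that setting. Python 3.11.15, numpy 2.4.6, pandas 2.3.3 and matplotlib 3.10.9 were used. Members and lists were chosen with earlier results of these data known. Named were the 5 regulators, each member past the ratio in any pair or with an exon event, and the highest and lowest members per length. Alternatives were no scaling, scaling by sums, other limits on base mean and ratio, GC content, and, for events, both replicates, a larger change and either replicate alone.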

Additional observations from a re-analysis of the deposited data

How the results depend on the processing

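No base mean has a spread or a depth, so the counts rest on the limits chosen. For members lower in BRG1-wt than in BRG1-mut, the count of 5 (8.34% of all genes) became 2 (6.84%) without scaling, 3 (7.88%) with scaling by sums, 10 (21.0%) at a ratio of 1.1, 2 (2.04%) at 1.5 and 1 (1.04%) after GC medians were subtracted. For members higher in BRM-wt than in BRM-mut, the count of 5 (8.86%) became 2 (5.63%) without scaling, 13 (22.5%) at 1.1, 2 (2.28%) at 1.5 and 2 (2.69%) after GC subtraction. For members higher in BRG1-mut than in BRM-mut, the count of 10 (20.4%) became 6 (10.0%) at 1.5 and 2 (3.46%) after GC subtraction, and 3 were lower (13.5%) at 1.1. Members higher in BRG1-wt than in BRG1-mut numbered 1 with a base mean limit of 10 (3.9%) or none (14%) and 2 (6.14%) at 1.1, and 1 member (1.91%) was lower in BRG1-wt than in BRM-wt at 1.1. The share of all genes thus moved with these settings too.

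Other pathway genes higher in BRG1-wt than in BRG1-mut numbered 2 with a limit of 10 (3.9% of all genes) or none (14%). They also numbered 2 at 1.1 (6.14%) and after GC subtraction (2.18%). Those lower in BRG1-wt numbered 5 at 1.1 (21.0%) and 1 after GC subtraction (1.04%). Those higher in BRM-wt than in BRM-mut numbered 12 at 1.1 (22.5%), 3 at 1.5 (2.28%) and 2 after GC subtraction (2.69%). Those higher in BRG1-wt than in BRM-wt numbered 2 with a limit of 10 (1.69%), with none (12.2%) and at 1.1 (3.96%), with 1 lower at 1.1 (1.91%). Between the mutants 13 were higher at 1.1 (32.8%), and 3 higher (3.46%) and 1 lower (1.75%) after GC subtraction.

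Of the 20 log2 ratios of members past the limit, GC subtraction reversed 3, those of TM7SF2 in BRG1-wt against BRG1-mut (0.0392), MVD in BRM-wt against BRM-mut (-0.0755) and SCAP in BRG1-mut against BRM-mut (-0.0608). Other scalings and base mean limits reversed 0 of the 20. Of the 116 ratios under the limit, 30 changed sign after GC subtraction, 23 without scaling, 3 with scaling by sums and 5 with either other base mean limit. The cause was not tested, except that a higher or lower limit admits fewer or more genes by construction. The 9 exon events became 0 when both replicates of a group were required, 4 at a change of at least 0.2, and 4 to 6 when a replicate was left out. Without replicate 1 the 4 events were the 90 bp exon of SREBF1 and those of FDPS and FDFT1. No paired analysis was possible because the base means pool the libraries and no test was made.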
